A study of Mus musculus with 18 samples.

Results

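The zinc transporter genes followed here were 10, picked by gene name: Slc39a1, Slc39a6, Slc39a7, Slc39a8, Slc39a10, Slc39a13 and Slc39a14 of the ZIP (SLC39) family, and Slc30a5, Slc30a6 and Slc30a7 of the ZnT (SLC30) family. They are 10 of the 30452 genes in the deposited table. MC3T3-E1, a mouse pre-osteoblast line, was grown for 5 days on sterilised membrane discs 15 mm across, from 20000 cells per well. The membranes were plain poly-L-lactic acid (PLLA), PLLA carrying zinc oxide (PLLA/ZnO), and the zinc oxide membrane with collagen (PLLA/ZnO@Col). Each was kept without ultrasound (-US) or given 10 min of it every day (+US), which makes 6 groups of 3 polyadenylated RNA libraries. No group had zinc oxide without PLLA or collagen without zinc oxide, so collagen was seen only on top of zinc oxide.

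ZIP proteins move zinc into the cytosol, either from outside the cell or out of organelles, while ZnT proteins move it the other way, out of the cell or into vesicles and the secretory route. ZnT5 pairs with ZnT6, and ZnT7 pairs with itself, to load the early secretory route, where zinc is built into enzymes such as tissue-nonspecific alkaline phosphatase, the mineralisation enzyme of osteoblasts. When cytosolic zinc is high, the transcription factor MTF-1 is known to switch on metallothioneins and the exporter Slc30a1, and it is known to hold down the importer Slc39a10.

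Of the 10 genes, 9 were expressed highly enough to be tested, meaning at least 1 FPKM (a read level scaled to transcript length and library size) in 3 or more libraries. No member passed the test between any groups compared: by edgeR's quasi-likelihood test with Benjamini-Hochberg adjustment, 0 of the 9 passed an adjusted p of 0.05 in each of 12 comparisons, and 0 of the 11936 genes tested did so in any of them. DESeq2's test and limma on log2 FPKM also passed 0 of the 9. In the 4 comparisons of a zinc oxide membrane with plain PLLA, 4 members kept 1 sign throughout: the log2 fold changes of the importer Slc39a10 and of Slc30a7 were negative, and those of Slc39a1 and Slc30a6 positive. Slc39a10 had the largest of these in each of the 4, from -0.35 to -0.68. The library-to-library spread was large beside these differences, as the plot of levels by library shows.

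**Figure D1:**
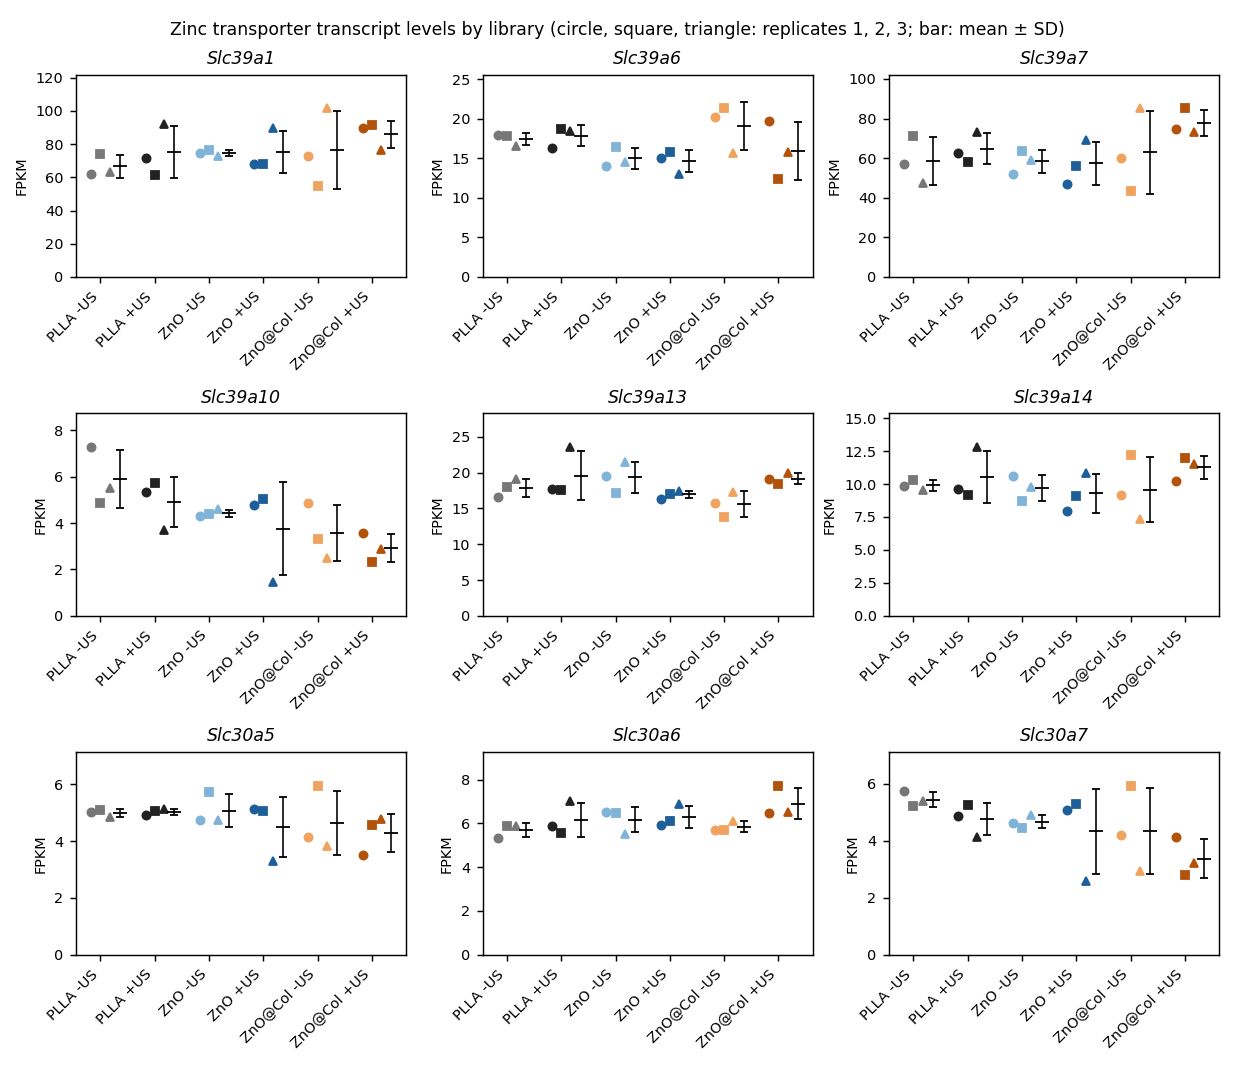
Each panel plots one gene's FPKM (y axis, from 0) in the 18 libraries by group (x axis; ZnO stands for PLLA/ZnO and ZnO@Col for PLLA/ZnO@Col), with the mean and SD of 3 libraries as a bar. Slc39a10 runs from 1.44 to 7.27 FPKM and is the plotted gene with the widest relative spread (CV 33.3%), and the groups of most members overlap.

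Total counts were 48307580 to 78039543 per library, and each tested member had at least 500 reads in every library, so counting error was small beside the spread between libraries. The labels do not say that the 3 libraries of a group came from separate cultures, so the p-values measure the spread between these libraries only. Libraries stood apart in 2 ways that touch the results below. Replicates 1 and 3 of PLLA/ZnO@Col -US and replicate 1 of PLLA/ZnO@Col +US had a summed Y-linked level of 0.185 to 0.386 FPKM and Thy1 at 0.0709 to 0.128 FPKM, against Y-linked sums of 2.55 to 21.8 FPKM in the other 15. In 5 libraries, replicate 3 of PLLA +US, of PLLA/ZnO +US and of PLLA/ZnO@Col -US and replicates 2 and 3 of PLLA/ZnO@Col +US, mitochondrial genes took 1.57 to 1.87% of counts, against 2.16 to 4.54% in the other 13. Of the osteoblast-lineage markers, Col1a1 averaged 930 FPKM and Runx2 8.38 FPKM, whereas Alpl, which encodes tissue-nonspecific alkaline phosphatase, never passed 0.178 FPKM and Ibsp never passed 0.0286 FPKM. Of 6 macrophage markers, Ptprc and Adgre1 stayed at or under 0.0935 and 0.0813 FPKM, while Csf1r averaged 0.907, Cd68 3.66, Cd14 13.9 and Lyz2 15.8 FPKM. Their summed level was 40.3 to 42.0 FPKM on PLLA -US, 18.2 to 39.9 on PLLA/ZnO -US and 21.3 to 48.8 on PLLA/ZnO@Col -US. With ultrasound it was 24.9 to 39.7, 21.4 to 37.5 and 17.9 to 47.2 FPKM on the same membranes, and its part in the results was not tested. In bulk RNA, fewer cells of a type and less RNA per cell cannot be told apart.

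Among the plasma membrane importers, Slc39a1 (ENSMUSG00000052310, GRCm38 chr3:90248172-90253612, plus strand), a broadly expressed importer, had the highest level of all 10 genes. It averaged 75.6 FPKM over the 18 libraries, with a range of 55.0 to 102 FPKM, and made up 35.3% of the summed FPKM of the 14 ZIP genes measured. Slc39a6 (ENSMUSG00000024270, chr18:24579881-24603817, minus strand) and its close relative Slc39a10 (ENSMUSG00000025986, chr1:46807544-46888070, minus strand), whose products can pair with each other, averaged 16.6 and 4.25 FPKM. Slc39a14 (ENSMUSG00000022094, chr14:70303469-70351425, minus strand), which also carries iron and manganese, averaged 10.0 FPKM.

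Slc39a8 (ENSMUSG00000053897, chr3:135825279-135888572, plus strand), a zinc and manganese importer, was close to absent. It had 41 reads in all and 0 reads in 13 of 18 libraries, and a count of 0 there allows (at 3 reads) up to 0.0503 to 0.0621 CPM, the count scaled to library size. Replicate 3 of PLLA +US held 22 of the reads, and the same library was the only one with Kap, a kidney transcript, listed above 0 (62.4 FPKM). Kap was chosen after its values were seen. The other reads lay in libraries where Kap was 0, and the source of the reads was not tested. Slc39a8 was too low to test, and these floors cover counting error only.

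Of the members that release zinc from organelles, Slc39a7 (ENSMUSG00000024327, chr17:34028269-34031648, minus strand), a transporter that releases zinc from the endoplasmic reticulum, averaged 63.3 FPKM and 29.6% of the ZIP total. It shares 2084 of its 2584 annotated exon bases (GENCODE vM21) with Gm20427 on the same strand, listed at 5.31 to 20.9 FPKM, so how the deposited counts divide reads between the 2 is uncertain. Slc39a13 (ENSMUSG00000002105, chr2:91061791-91070417, minus strand), a Golgi and vesicle transporter needed for connective tissue formation, averaged 18.1 FPKM; 215 of its 4869 exon bases are also exon of Psmc3 on the other strand. The loaders of the secretory route were lower: Slc30a6 (ENSMUSG00000024069, chr17:74395608-74424221, plus strand) averaged 6.18 FPKM, its partner Slc30a5 (ENSMUSG00000021629, chr13:100802648-100833427, minus strand) 4.75 FPKM, and Slc30a7 (ENSMUSG00000054414, chr3:115938973-116007406, minus strand) 4.48 FPKM. On the other strand, 1165 and 637 of the 11116 exon bases of Slc30a7 are also exon of Gm6649 and Gm43106, so reads of these genes may mix unless the counting used strand, which no source here states. The 7 ZIP members made up 87.8% of ZIP FPKM, and the 3 ZnT members 42.9% of the FPKM of the 9 ZnT genes measured, where the vesicular transporter Slc30a4 was higher at 13.9 FPKM.

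The order of these levels was stable in parts. Slc39a1 lay above Slc39a7, and Slc39a7 above Slc39a13, in 18 of 18 libraries. Slc39a13 and Slc39a6 were not separated, with Slc39a13 higher in 13 of 18. Slc30a5 lay above Slc30a7 in 10 of 18 libraries and Slc30a7 above Slc39a10 in 13 of 18, so the lowest 3 tested genes were not separated. Within each gene, the 6 groups could hardly be ordered: neighbouring groups in the order of means overlapped in all 5 pairs for every member but Slc39a7, where 4 of 5 did.

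The question put first was what zinc oxide in the membrane does to these genes. On PLLA/ZnO against plain PLLA without ultrasound, 5 of 9 tested members had a positive and 4 a negative log2 fold change, where 48.9% and 51.1% of all tested genes did. Their median was 0.01, beside -0.01 over all tested genes. None of the 9 passed the test (0% of all tested genes did), and none had an unadjusted p under 0.05, where 1.19% of all genes did. With ultrasound, 2 were positive and 7 negative (46.2% and 53.8% of all genes), with a median of -0.13 beside -0.02 over all genes. Again 0 of 9 passed (0% of all genes), and 0 had an unadjusted p under 0.05 (1.27% of all genes).

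For PLLA/ZnO@Col against PLLA without ultrasound, 4 members were positive and 5 negative (51.4% and 48.6% of all genes; median -0.01, all genes 0.01), and 0 passed (0% of all genes), with 0 under an unadjusted p of 0.05 (12% of all genes). With ultrasound, 5 were positive and 4 negative (52.7% and 47.3% of all genes; median 0.06, all genes 0.03), and 0 passed (0% of all genes), with 0 under an unadjusted p of 0.05 (8.55% of all genes). The plot of ZnO contrasts gives each estimate with its interval. Both comparisons without ultrasound share the PLLA -US libraries, and both with ultrasound share PLLA +US, so the 4 are not independent.

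**Figure D2:**
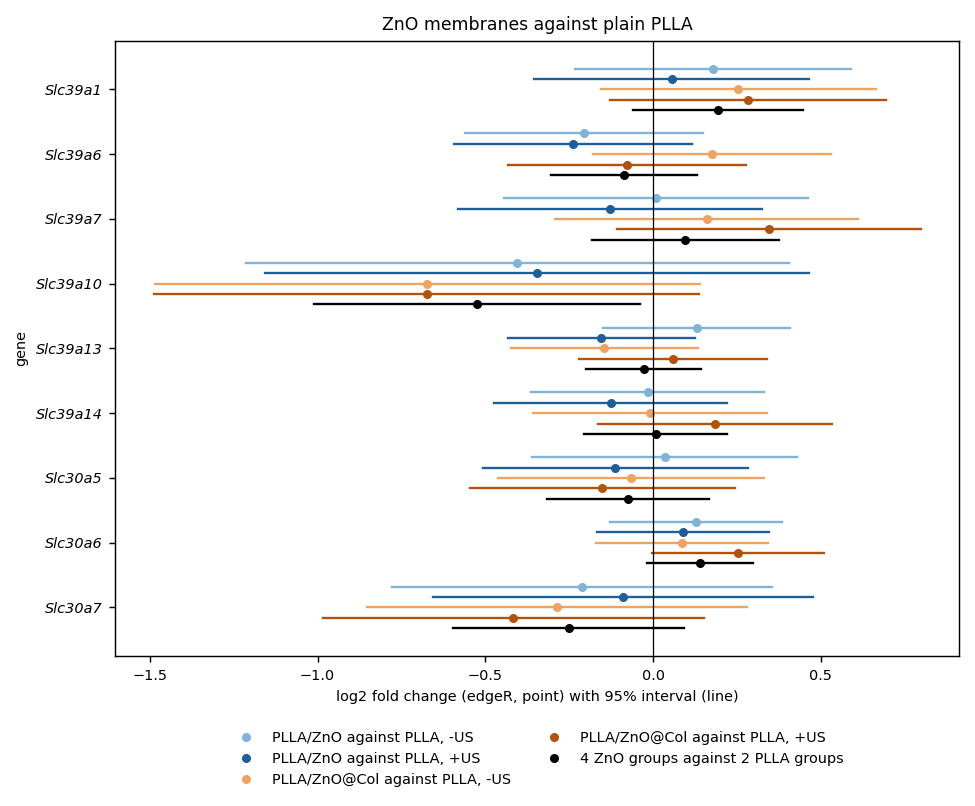
The log2 fold change of each tested member (points; lines are 95% intervals from edgeR) is shown for the 4 comparisons of a ZnO membrane with plain PLLA and for the 4 ZnO groups against the 2 PLLA groups. Slc39a10 lies left of 0 in all 5, between -0.35 and -0.68, and only the interval of the pooled comparison leaves out 0.

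Slc39a10 stood at 7.27, 4.88 and 5.53 FPKM in replicates 1 to 3 of PLLA -US, and at 4.29, 4.40 and 4.58 FPKM on PLLA/ZnO -US. Its level was 4.88, 3.33 and 2.50 FPKM on PLLA/ZnO@Col -US. All 6 zinc oxide libraries lay below all 3 of PLLA, though 1 on PLLA/ZnO@Col (4.881 FPKM) only just so (4.883 FPKM). The log2 fold change was -0.40 (SE 0.38, edgeR adjusted p = 1) on PLLA/ZnO and -0.67 (SE 0.38, adjusted p = 0.494) on PLLA/ZnO@Col.

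With ultrasound, Slc39a10 stood at 5.33, 5.72 and 3.69 FPKM on PLLA and at 4.79, 5.04 and 1.44 FPKM on PLLA/ZnO. Its 3 libraries on PLLA/ZnO@Col +US stood at 3.57, 2.32 and 2.88 FPKM, all below PLLA +US, while the PLLA/ZnO +US libraries overlapped it. The edgeR log2 fold changes were -0.35 (SE 0.38, adjusted p = 1) and -0.68 (SE 0.38, adjusted p = 0.561). Replicate 3 of PLLA/ZnO +US was far below the other 2 of its group, and without it the first of these was 0.03, the only one of its 17 alternatives above 0. Same-numbered libraries of PLLA +US and PLLA/ZnO +US deviated together, and Slc39a10 was lower on PLLA/ZnO within all 3 such pairs. The labels do not state this pairing, which was chosen from these data. Replicate 3 was the library of low mitochondrial share in both groups (1.87 and 1.57%), so the pairs and a fit blocked on them give no separate support. With the replicate number as a block in a fit of these 6 libraries, its value was -0.51 (unadjusted p = 0.0865, edgeR adjusted p = 0.519), and no member passed.

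Pooled, Slc39a10 averaged 3.67 ± 1.18 FPKM (SD, n = 12) in the 4 ZnO groups and 5.40 ± 1.17 FPKM (SD, n = 6) in the 2 PLLA groups. The difference was -0.52 on the log2 scale (SE 0.23, 95% interval -1.01 to -0.04), with an unadjusted p of 0.0364 and an edgeR adjusted p of 0.557. It was the one member of 9 under an unadjusted p of 0.05 there, where 7.82% of all tested genes were, and the 2 sets of libraries overlapped. In this comparison as well 0 of 9 members and 0% of all genes passed the adjusted test. All 28 alternatives kept it negative, from -0.63 to -0.41. Slc39a1, Slc30a6 and Slc30a7 also kept their signs in all 28, and these alternatives share most of their libraries.

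Slc39a6, the relative of Slc39a10, showed smaller differences. It stood at 17.9, 17.8 and 16.5 FPKM on PLLA -US and at 14.0, 16.5 and 14.5 FPKM on PLLA/ZnO -US. With ultrasound it stood at 16.3, 18.7 and 18.5 FPKM on PLLA and at 15.1, 15.8 and 13.04 FPKM on PLLA/ZnO. In both cases the PLLA/ZnO libraries were all below the PLLA libraries, with log2 fold changes of -0.21 (SE 0.17, edgeR adjusted p = 1) and -0.24 (SE 0.17, adjusted p = 1).

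Slc39a6 did not share that position on PLLA/ZnO@Col. It stood at 20.2, 21.3 and 15.6 FPKM without ultrasound and at 19.7, 12.3 and 15.8 FPKM with it, overlapping PLLA in both cases. The log2 fold changes against PLLA were 0.17 (SE 0.17, edgeR adjusted p = 0.705) and -0.08 (SE 0.17, adjusted p = 0.808). Its 2 highest values in the whole series, 21.3 and 20.2 FPKM, were both on PLLA/ZnO@Col -US.

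Slc39a1 was higher on average on the zinc oxide membranes, at 78.1 ± 12.8 FPKM (SD, n = 12) against 70.8 ± 11.8 FPKM (SD, n = 6), a log2 fold change of 0.19 (SE 0.12, edgeR adjusted p = 0.557). The groups overlapped in each comparison with PLLA. Its 3 libraries on PLLA/ZnO@Col -US spanned 55.0 to 102 FPKM. With the 3 libraries that lack Y-linked reads left out, which leaves 1 library there, its difference from PLLA turned from 0.25 to -0.28. Slc39a14 had log2 fold changes of -0.02, -0.13, -0.01 and 0.18 in the 4 comparisons, with the lowest adjusted p at 0.603 by edgeR.

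Of the organelle release members, Slc39a7 was level on PLLA/ZnO and higher on the collagen membrane with ultrasound. It stood at 62.8, 58.3 and 73.3 FPKM on PLLA +US and at 74.6, 85.2 and 73.4 FPKM on PLLA/ZnO@Col +US, where all 3 libraries lay above PLLA, the lowest by a narrow margin. The log2 fold change was 0.35 (SE 0.21, edgeR adjusted p = 0.564). Without ultrasound its libraries on PLLA/ZnO@Col ranged from 43.7 to 85.2 FPKM and spanned all 3 of PLLA; the log2 fold change of 0.16 turned to -0.43 without the 3 libraries lacking Y-linked reads. Slc39a13 had log2 fold changes of 0.13, -0.15, -0.15 and 0.06, and only its PLLA/ZnO +US libraries, at 16.4, 17.03 and 17.5 FPKM, lay clear of and below PLLA +US, at 17.7, 17.6 and 23.6 FPKM.

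The log2 fold changes of the loaders of the secretory route differed in sign. Slc30a7 was lower in each of the 4 comparisons, by log2 fold changes of -0.21, -0.09, -0.29 and -0.42 (SE 0.27 for each; edgeR adjusted p = 1, 1, 0.695 and 0.568). Its libraries lay below PLLA without overlap on PLLA/ZnO -US (4.62, 4.45 and 4.90 against 5.73, 5.21 and 5.38 FPKM) and on PLLA/ZnO@Col +US (4.12, 2.79 and 3.20 against 4.86, 5.24 and 4.14 FPKM). Its value on PLLA/ZnO +US turned to 0.16 without replicate 3, and on PLLA/ZnO@Col -US it was 0.11 without the 3 libraries lacking Y-linked reads.

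Slc30a6 had a positive log2 fold change in each comparison, of 0.13, 0.09, 0.09 and 0.25, the last with an SE of 0.12 and an edgeR adjusted p of 0.561. Its partner Slc30a5 had 0.03, -0.11, -0.07 and -0.15, the last with an SE of 0.19 and an edgeR adjusted p of 0.675. The Slc30a5 libraries on PLLA/ZnO@Col +US, at 3.51, 4.55 and 4.79 FPKM, were all below PLLA +US, at 4.93, 5.04 and 5.11 FPKM, while Slc30a6 overlapped. So the estimates for this transporter pair had opposite signs in that comparison, with neither past the test. Both 95% intervals spanned 0 (-0.004 to 0.51 for Slc30a6 and -0.55 to 0.24 for Slc30a5), so neither direction is settled.

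Counted over the 9 tested members, 3 lay below PLLA without overlap on PLLA/ZnO -US (Slc39a6, Slc39a10, Slc30a7; 9.95% of all tested genes did) and 0 above (7.61% of all genes). On PLLA/ZnO +US, 2 lay below (Slc39a6, Slc39a13; 5.91% of all genes) and 0 above (2.03% of all genes). For PLLA/ZnO@Col -US, 1 lay below (Slc39a10; 6.96% of all genes) and 0 above (4.87% of all genes). For PLLA/ZnO@Col +US, 3 lay below (Slc39a10, Slc30a5, Slc30a7; 10.8% of all genes), and 1 lay above (Slc39a7; 6.18% of all genes).

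Gene length and the mitochondrial share moved with these values. Among all tested genes, the shorter ones were higher and the longer ones lower on PLLA/ZnO -US than on PLLA -US: with the genes in 5 length classes of equal size, the median difference of mean log2(FPKM + 0.1) was 0.18, 0.07, -0.02, -0.09 and -0.18 from the shortest to the longest class. For PLLA/ZnO@Col +US it was -0.02, 0.0004, -0.02, -0.08 and -0.23 in the same order. By the length implied by the deposited count and FPKM, Slc39a1 (2740 bases) and Slc39a7 (2995 bases) are in class 2, counted from the shortest. Slc30a7 (12889 bases), Slc39a14 (12237 bases) and Slc30a5 (8460 bases) are in the longest class. Across the 4 ZnO comparisons, Slc30a7 was between percentiles 27.8 and 55.5 of that class, Slc39a14 between 60.0 and 82.3, and Slc30a5 between 49.7 and 89.5. Slc39a10 (7067 bases), the member with the most negative log2 fold changes in these same comparisons, was between percentiles 2.23 and 6.57 of its own class. In their own classes, Slc39a1 was between 55.5 and 82.4, Slc39a7 between 19.6 and 89.8, and Slc39a6 between 9.35 and 67.9. Slc39a13 was between 26.2 and 80.2, and Slc30a6 between 48.6 and 76.4. The part of length in these differences was not tested, and the split by length was chosen after the data were seen.

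**Figure D3:**
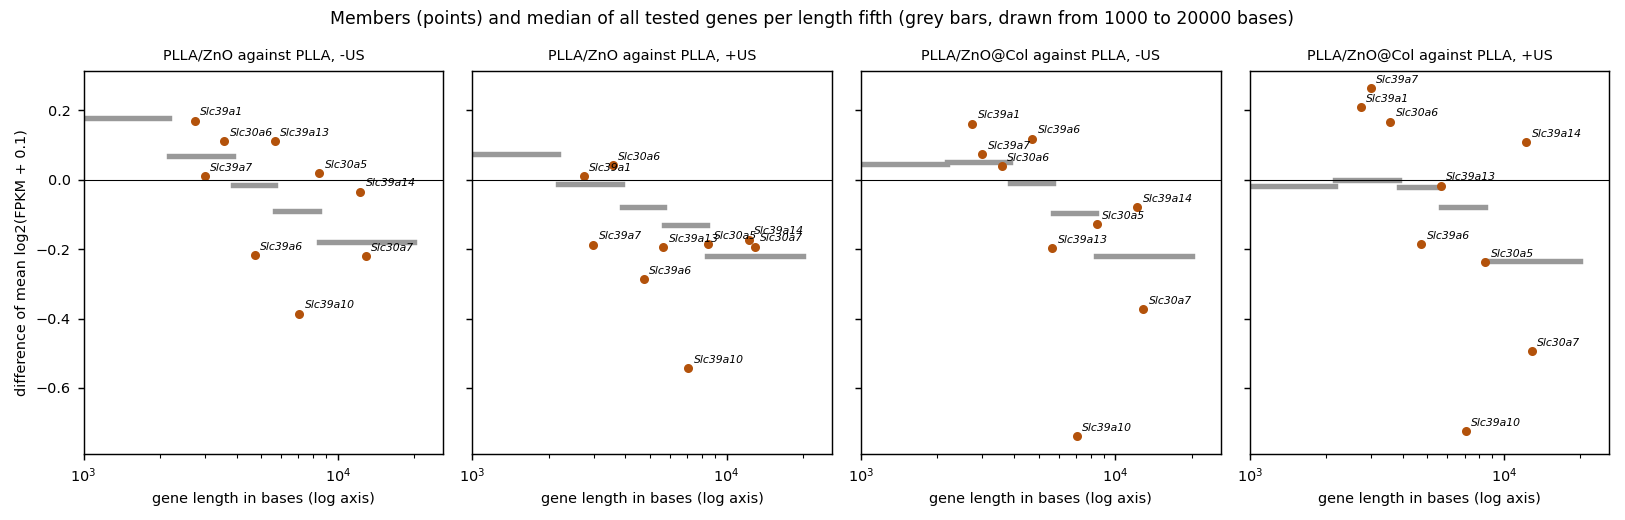
For each comparison with PLLA, the difference of mean log2(FPKM + 0.1) of the 9 tested members (points, named) is set against gene length on a log axis, with the median of all tested genes in each of 5 length classes as a grey bar. The bars step down from 0.18 to -0.18 on PLLA/ZnO -US, Slc30a7 lies near the bar of the longest class, and Slc39a10 lies well under its own.

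The 5 libraries of low mitochondrial share differed from the other 13 over all tested genes. By length class the median log2 differences were 0.19, 0.23, 0.13, -0.006 and -0.33, from the shortest to the longest. Within their own classes, Slc39a10 was at percentile 14.5, Slc39a6 29.8, Slc30a7 34.9, Slc30a6 46.9 and Slc39a13 50.5. Slc30a5 was at 57.8, Slc39a1 at 75.4, Slc39a14 at 85.3 and Slc39a7 at 85.7. Slc39a10 stood at 1.44 to 3.69 FPKM in these 5 libraries and at 3.33 to 7.27 FPKM in the other 13. Slc30a7 stood at 2.60 to 4.14 against 4.12 to 5.92 FPKM. In the opposite sense, Slc39a1 stood at 76.6 to 102 FPKM against 55.0 to 89.5, Slc39a7 at 69.0 to 85.2 against 43.7 to 74.6, and Slc30a6 at 6.13 to 7.71 against 5.32 to 6.53 FPKM. The part of this split in the results was not tested. One of these libraries is on plain PLLA and 4 are on zinc oxide membranes. Without them the pooled Slc39a10 difference was -0.41 (unadjusted p = 0.0101, edgeR adjusted p = 0.254).

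**Figure D4:**
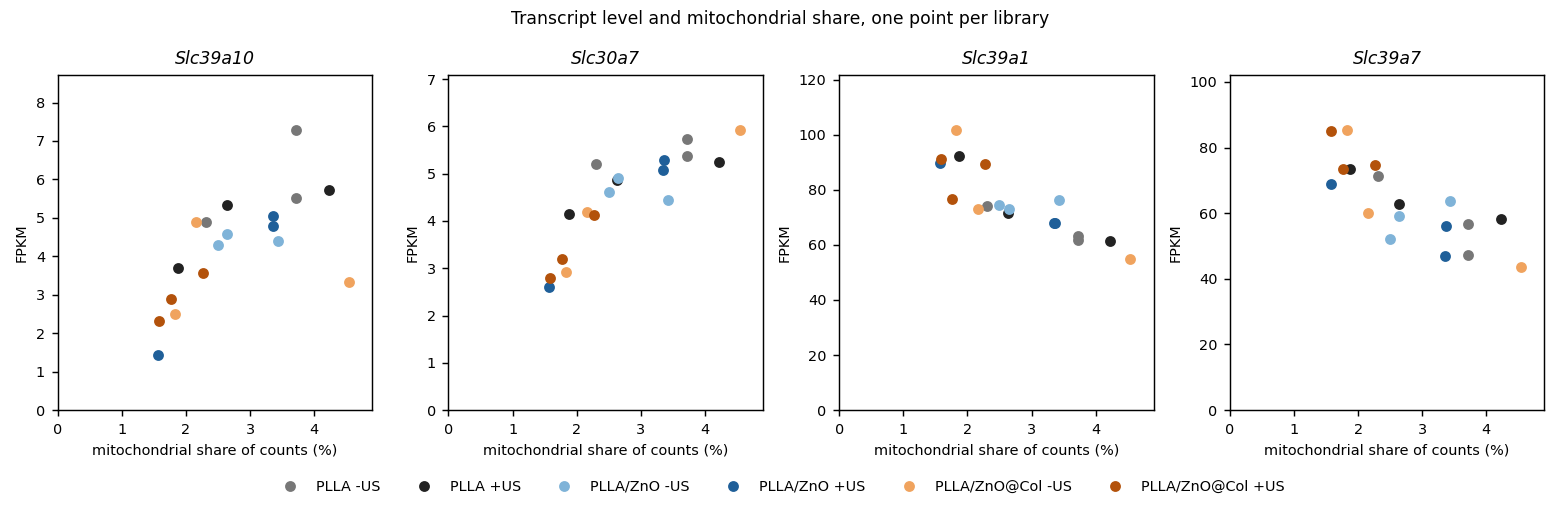
One point per library sets FPKM (y axis, from 0) against the percentage of counts on mitochondrial genes (x axis, from 0) for Slc39a10, Slc30a7, Slc39a1 and Slc39a7, coloured by group. The 5 points below 2% include the lowest Slc30a7 and Slc39a10 values, 2.60 and 1.44 FPKM, and the highest Slc39a1 value, 102 FPKM.

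Some members also varied together across the 18 libraries, which share the groups and the mitochondrial split just described. Over the pairs of tested members, Pearson's r ran from -0.84 (Slc39a1 and Slc30a7) to 0.87 (Slc39a10 and Slc30a7). It was 0.86 between Slc39a1 and Slc39a7, but -0.02 between Slc39a1 and Slc39a14. Between the partners Slc30a5 and Slc30a6 it was -0.46. Across all tested genes, the 5 whose pattern was most like that of Slc39a10 over 18 libraries were Sytl2 (r = 0.94), Zfp9 (0.94), 2510009E07Rik (0.93), Diaph3 (0.92) and Rbm5 (0.92), and 34 genes had an r over 0.9.

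Promoter letters were read for the members because MTF-1 acts through metal response elements. RefSeq promoter windows (GRCm38.p6, 250 bases before to 50 after a start) were present for 8 of the 10 members, all but Slc39a6 and Slc39a14. The core was searched as TGCACNC or TGCGCNC on both strands; 25.704% of all 32851 windows of that length hold at least 1 match. Slc39a13, Slc30a5 and 1 of the windows of Slc39a8 held 1 match each, and the windows of Slc39a1, Slc39a7, Slc39a10, Slc30a6 and Slc30a7 held none. The known MTF-1 targets Slc30a1, Mt1 and Mt2 held 2, 3 and 4. A match is a string of letters and not a shown site, and a window without one says nothing about the factor.

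The matches are shown with 10 bases on each side, in capitals, on the strand that reads as the core. That of Slc39a13 starts 18 bases after the RefSeq start (chr2:91070282-91070308, minus strand). That of Slc39a8 is 19 bases before an inner RefSeq start (chr3:135825628-135825654, minus strand). Its window lies inside the deposited gene and overlaps annotated exon of Slc39a8, and the window at the outer start held no match. Those of Slc30a1 are 43 before and 31 after the RefSeq start (chr1:191906728-191906754 and chr1:191906801-191906827, minus strand).
Slc39a13: gtgacgtggcTGCACGCcgggggtggc
Slc39a8: gatcaggcccTGCACCCtttagagata
Slc30a1, first: aactttgcttTGCACTCggaacccccg
Slc30a1, second: ccgcggcgacTGCGCTCggcccggagg

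Longer stretches are shown for 3 members, the 250 bases before a RefSeq start: Slc39a10, the member with the most negative log2 fold changes against PLLA, with its outer start (chr1:46925777-46926026, minus strand), and the partners Slc30a5 (chr13:100833428-100833677, minus strand) and Slc30a6 (chr17:74395358-74395607, plus strand). The capitals in Slc30a5 mark the core, which is on the opposite strand and so reads here as its reverse complement. Slc30a6 and Slc39a10 are without the core. No gene at all passed the test in any comparison, so the test says nothing about the core. The outer start of Slc39a10 lies outside the deposited gene, upstream of it.
Slc39a10: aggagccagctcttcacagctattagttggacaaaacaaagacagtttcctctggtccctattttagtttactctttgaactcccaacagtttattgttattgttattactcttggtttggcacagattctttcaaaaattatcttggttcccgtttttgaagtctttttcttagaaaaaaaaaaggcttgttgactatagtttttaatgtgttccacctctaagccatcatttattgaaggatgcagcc
Slc30a5: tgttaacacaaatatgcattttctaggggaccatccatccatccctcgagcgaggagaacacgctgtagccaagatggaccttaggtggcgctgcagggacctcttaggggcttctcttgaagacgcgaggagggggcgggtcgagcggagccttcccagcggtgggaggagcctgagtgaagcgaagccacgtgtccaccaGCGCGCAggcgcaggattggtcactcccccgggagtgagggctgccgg
Slc30a6: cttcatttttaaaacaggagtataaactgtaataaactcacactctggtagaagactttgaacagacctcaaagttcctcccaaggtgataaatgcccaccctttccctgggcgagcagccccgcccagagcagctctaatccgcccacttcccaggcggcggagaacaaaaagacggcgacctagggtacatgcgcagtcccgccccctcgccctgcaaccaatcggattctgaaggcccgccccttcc

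Collagen on the zinc oxide membrane was compared with the zinc oxide membrane alone. Without ultrasound 0 of 9 members passed (0% of all genes), and 1 had an unadjusted p under 0.05 (12.9% of all genes). None lay clear of PLLA/ZnO, above (5.09% of all genes) or below (6.31%). The member with an unadjusted edgeR p under 0.05 was Slc39a6. It stood at 20.2, 21.3 and 15.6 FPKM against 14.0, 16.5 and 14.5 FPKM, with 2 of the 3 collagen libraries above all the others. Its log2 fold change was 0.38 (SE 0.17, edgeR adjusted p = 0.345). Without the 5 libraries of low mitochondrial share, an alternative chosen after the data were seen, the log2 fold change of Slc39a6 was 0.49. Its edgeR adjusted p of 0.0389 then passed, as did 435 of the 11936 genes tested (3.64%). This left 2 libraries on PLLA/ZnO@Col -US, at 20.2 and 21.3 FPKM, and the first of these lacked Y-linked reads. The library left out, at 15.6 FPKM, alone of its group lay within the PLLA/ZnO range.

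With ultrasound 0 of 9 passed (0% of all genes), and Slc39a7 had an unadjusted p under 0.05 (9.43% of all genes). It stood at 74.6, 85.2 and 73.4 FPKM on PLLA/ZnO@Col +US and at 47.1, 56.0 and 69.0 FPKM on PLLA/ZnO +US, without overlap, a log2 fold change of 0.47 (SE 0.21, edgeR adjusted p = 0.504). Slc39a13 also lay higher without overlap, at 19.1, 18.4 and 19.997 against 16.4, 17.03 and 17.5 FPKM, and 10.2% of all genes did so. None lay lower without overlap (5.08% of all genes).

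Daily ultrasound left the members within their spread on PLLA and on PLLA/ZnO, where 0 of 9 passed (0% of all genes in each) and 0 had an unadjusted p under 0.05 (0.436% and 3.24% of all genes). None of the 9 lay clear of the libraries without ultrasound, above (4.99% of all genes on PLLA, 6.82% on PLLA/ZnO) or below (5.8% and 4.62%). The log2 fold changes ran from -0.29 (Slc39a10) to 0.13 (Slc39a1) on PLLA and from -0.23 (Slc39a10) to 0.03 (Slc30a6) on PLLA/ZnO. The intervals are wide: for Slc39a10 on PLLA the 95% interval was -1.09 to 0.52, so sizeable changes in either direction are not set aside by these data.

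**Figure D5:**
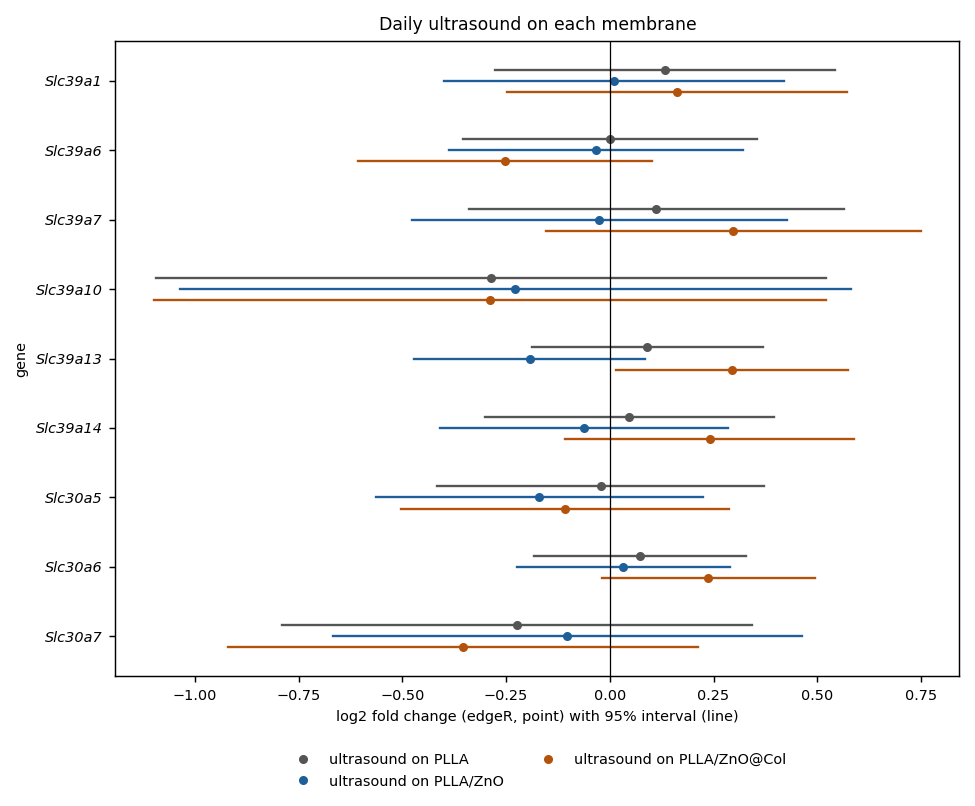
The log2 fold change with ultrasound (points; lines are 95% intervals from edgeR) is shown for each tested member on the 3 membranes. On PLLA and PLLA/ZnO every interval spans 0, and on PLLA/ZnO@Col that of Slc39a13, 0.02 to 0.57, does not.

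With ultrasound on PLLA/ZnO@Col 0 of 9 passed (0% of all genes), and Slc39a13 had an unadjusted p under 0.05 (8.18% of all genes). It stood at 15.8, 13.8 and 17.4 FPKM without and at 19.1, 18.4 and 19.997 FPKM with ultrasound, without overlap, a log2 fold change of 0.29 (SE 0.13, edgeR adjusted p = 0.525). Slc30a6 also lay higher without overlap, at 6.47, 7.71 and 6.52 against 5.71, 5.71 and 6.13 FPKM (0.24, SE 0.12, adjusted p = 0.525), and 5.28% of all genes did so. None lay lower without overlap (5.74% of all genes).

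Whether ultrasound acted differently on the membranes was tested directly. For PLLA/ZnO@Col minus PLLA/ZnO, the difference of the ultrasound contrasts was 0.49 for Slc39a13 (SE 0.19, 95% interval 0.09 to 0.88), with an unadjusted p of 0.0187 and an edgeR adjusted p of 0.999. It was the one member under an unadjusted p of 0.05 (2.2% of all genes), and 0 passed (0% of all genes). For PLLA/ZnO minus PLLA, 0 passed (0% of all genes) and 0 had an unadjusted p under 0.05 (0.385% of all genes). On the collagen membrane without the 3 libraries lacking Y-linked reads, which leaves 1 library without ultrasound, the ultrasound values of Slc39a7 and Slc30a7 went from 0.30 to 0.90 and from -0.35 to -0.94.

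Around the members, 0 of 9 tested genes of the other zinc transporters and zinc buffering genes passed in any comparison, of 20 listed. Mt1 and Mt2, the metallothioneins that bind cytosolic zinc, averaged 120 and 304 FPKM. Without ultrasound Mt1 stood at 84.7, 81.7 and 87.7 FPKM on PLLA and at 119, 143 and 143 FPKM on PLLA/ZnO, a log2 fold change of 0.68 (SE 0.29, edgeR adjusted p = 1). With ultrasound its log2 fold change on PLLA/ZnO was -0.14 (SE 0.28, adjusted p = 1). Mt2 had 0.58 and -0.25 in the same comparisons (adjusted p = 1 for both). On PLLA/ZnO@Col without ultrasound, the log2 fold change against PLLA was 1.10 for Mt1 (SE 0.29, unadjusted p = 0.0016, edgeR adjusted p = 0.182) and 0.68 for Mt2 (SE 0.27, adjusted p = 0.363). With ultrasound these were 0.20 and -0.08 (adjusted p = 0.713 and 0.873).

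The exporter Slc30a1 averaged 1.55 FPKM and had log2 fold changes of 0.02 and 0.09 on PLLA/ZnO (SE 0.41, edgeR adjusted p = 1 for both). Its value on PLLA/ZnO@Col -US, 0.71 (SE 0.41, adjusted p = 0.505), rested on replicate 2, at 4.68 FPKM against 1.72 and 1.28 FPKM. Slc30a4 ranged from 2.79 FPKM in replicate 3 of PLLA/ZnO +US, the library lowest in Slc39a10 and Slc30a7, to 27.9 FPKM in replicate 2 of PLLA/ZnO@Col -US. Mtf1, which encodes MTF-1, averaged 2.27 FPKM, with log2 fold changes of -0.27 and -0.13 on PLLA/ZnO.

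The genes these transporters serve or respond to were counted in the same way. Of zinc-dependent enzymes of the secretory route, 0 of 9 tested passed in any comparison, and the 3 highest by mean over the 18 libraries were Mmp2, Mmp14 and Adam10. On PLLA -US they stood at 117 ± 13.5, 49.4 ± 4.62 and 31.0 ± 3.27 FPKM (SD, n = 3). Of collagen processing enzymes, 0 of 15 passed; the 3 highest over the 18 libraries were Serpinh1, P4hb and Pcolce, at 346 ± 35.4, 287 ± 19.4 and 121 ± 14.4 FPKM on PLLA -US. Of iron and manganese genes 0 of 9 passed, a list that includes the members Slc39a8 (not tested) and Slc39a14 (tested). Its highest genes by the same mean were the ferritin chains Fth1 and Ftl1 and Hmox1 (51.2 ± 2.94 FPKM on PLLA -US). Of 16 tested endoplasmic reticulum stress genes 0 passed (highest Hsp90b1, Calr and Hspa5), and of 10 tested IL-6 and acute-phase genes 0 passed (highest Saa3, Nfkbia and Cebpb).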

How the data were processed

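RNA of 18 libraries was measured. The authors deposited a table of whole-number read counts and a table of FPKM values per gene, side by side; cutadapt 1.9, FastQC and the GRCm38 build are named per the submitters' processing notes. Which aligner and counter were used, and with what strand setting, is not given in the sources used here. Members and gene lists were chosen with earlier results of these data known.

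From the counts, edgeR 4.0.16 (R 4.3.3) was run with TMM scaling on 11936 genes with at least 1 FPKM in 3 or more libraries, 1 mean per group over all 18 libraries (12 residual degrees of freedom), with Benjamini-Hochberg adjustment over all tested genes. FPKM served for levels, and as log2(FPKM + 1) and log2(FPKM + 0.1) in limma 3.58.1; DESeq2 1.42.0 was another alternative. Groups came from the sample titles, which number the replicates. Of the 15 pairs of groups, only PLLA +US and PLLA/ZnO +US had same-numbered libraries that deviated together in all 3 pairs. The correlation of deviations from the group means was 0.55 to 0.73. Replicate 3 was the library of low mitochondrial share in both groups, and no label states a pairing. A blocked fit of the 6 libraries of these groups was added after the data were seen. Named genes were all 10 members, of each list any gene passing and the 3 highest in mean FPKM, always Slc30a1, Mt1, Mt2, Mtf1 and Alpl, and the 5 genes most like Slc39a10. On simulated counts for PLLA/ZnO against PLLA without ultrasound (11936 genes), 0 of 50 genes changed 1.5-fold, 20 of 50 changed 2-fold, 43 of 50 changed 3-fold and 39 of 50 changed 4-fold were recovered, with 3 false calls.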

Additional observations from a re-analysis of the deposited data

How the results depend on the processing

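The count of members passing was 0 in every comparison under DESeq2 size factors in edgeR, DESeq2's own test and limma with either pseudocount. It was also 0 with no filter, another filter (filterByExpr), only the libraries compared, and the replicate block. A block in the 6 libraries of PLLA and PLLA/ZnO with ultrasound alone gave 0 as well. That pairing was chosen from these data and is not in the labels. Removal of the 3 libraries lacking Y-linked reads leaves 1 library on PLLA/ZnO@Col -US. The count was 0 in the comparisons without that group. Each of the 18 libraries left out in turn, run for the comparisons its group enters, also gave 0 (0 to 0). The exception was 1 member, Slc39a6 (edgeR adjusted p = 0.0389), for PLLA/ZnO@Col against PLLA/ZnO without ultrasound when the 5 libraries of lowest mitochondrial share were left out. That alternative was chosen after the data were seen and leaves 2 libraries on PLLA/ZnO@Col -US. Under it 435 of 11936 genes (3.64%) passed there, and the cause was not tested. Of the 108 member values, 54 kept their sign under all alternatives and 54 changed it under at least 1. Over all genes, counts were less steady: edgeR passed 0 genes in each comparison and DESeq2 up to 407. Without replicate 2 of PLLA/ZnO@Col -US, edgeR passed 1782 against PLLA and 1039 against PLLA/ZnO. Both libraries then left in that group, replicates 1 and 3, have near-absent Y-linked reads. Without replicate 3 of that group edgeR passed 18 against PLLA/ZnO. For ultrasound on PLLA/ZnO@Col it passed 38 without replicate 1 of PLLA/ZnO@Col +US. In the other pairs of groups, same-numbered replicates did not all deviate together, and the replicate block changed no call of a member. Changes of 1.5-fold were below what this design recovered on simulated counts.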
